A study of Mus musculus with 4 samples.

Results

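Macrophage identity genes are the genes by which cells of the monocyte and macrophage lineage are usually recognised. The 10 described here were chosen by name: the surface receptor genes Adgre1, Siglec1, Cx3cr1, Ccr2, Mertk and Ly6c2, the endolysosomal genes Cd68 and Gpnmb, and the secreted lysozyme genes Lyz2 and Lyz1. All 10 were among the 22417 genes of the deposited table, and 8 had enough counts to be tested. Cx3cr1 and Ccr2 did not. The data are ribosome profiling counts, that is, reads from the short stretches of mRNA that ribosomes shield from nuclease, so a count reflects both mRNA abundance and its translation. The cells were mouse bone-marrow-derived monocytes (BMDMs in the sample titles) kept for 3 days with RANKL, the cytokine that turns this lineage into osteoclasts. There were 2 libraries from Nat10 conditional knockout (cKO) mice and 2 from wild-type (WT) mice, and every library carried the RANKL treatment. Nat10 is the enzyme that acetylates cytidine in RNA. The sources used here do not give strain, age, the Cre driver or whether replicates came from separate mice, so p-values measure only the spread between these libraries, which may be technical.

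Circulating monocytes are known for the chemokine receptors Ccr2 and Cx3cr1 and the surface antigen Ly6C. As they become macrophages under M-CSF they lower these and raise F4/80 (the product of Adgre1), lysozyme, the lysosomal glycoprotein CD68 and receptors for dying cells such as MerTK. The same precursors can instead follow RANKL towards osteoclasts, which are known to keep CD68 and to make much Gpnmb while F4/80 declines.

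Total counts were 1467611 and 1481083 for cKO replicates 1 and 2, and 906937 and 3014620 for the WT pair in the same order. WT replicate 2 stood apart, with log2 CPM correlations of 0.753 to 0.79 with the other libraries against 0.859 to 0.921 among those. The fit without it is therefore given beside that of all libraries for each tested member and each tested gene named from the wider lists but Ccl2. With a WT library left out, the spread comes from the cKO pair alone. Adjusted p-values of such fits are therefore not like for like with those of all libraries. Nat10 itself had 101 and 72 counts in cKO and 77 and 148 in WT (log2 fold change -0.18, SE 0.41, adjusted p = 0.907, edgeR), so its counts do not check the genotype labels. A count summed over a gene does not show which exons its reads came from, so the loss of a single exon could not be looked for.

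The lysozyme genes are closely related neighbours, and their sequences bear on how far their counts can be told apart. Lyz2 lies at 117113236 to 117118226 and Lyz1 at 117123702 to 117128773 on chromosome 10, both on the minus strand (GRCm39, from the deposited table), with 5475 bases between them. The 125 bases before the RefSeq start of each gene are shown here 5′ to 3′ (RefSeq, GRCm38.p6, minus strand, chr10:117282273-117282397 for Lyz2 and chr10:117292869-117292993 for Lyz1), with capitals at the positions where the 2 genes differ.
Lyz2: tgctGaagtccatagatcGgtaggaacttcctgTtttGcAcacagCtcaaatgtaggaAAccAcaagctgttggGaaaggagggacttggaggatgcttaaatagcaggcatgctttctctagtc
Lyz1: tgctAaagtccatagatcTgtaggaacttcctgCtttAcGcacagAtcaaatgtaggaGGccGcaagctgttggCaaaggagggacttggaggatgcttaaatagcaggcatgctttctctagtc
The 2 stretches shared 115 of 125 bases (92.0%), and the 50 bases from the start onward shared 49. Set side by side without gaps, the next 125 bases upstream shared 29.6%, and the rest of the genes, from which most footprints come, was not compared. The longest identical run was 86 bases and reached from 50 bases before the start into the transcribed part. A footprint read from within such a run matches both genes, and the sources used here do not say how such reads were counted. A search of the 250 bases before the start was possible for 8 of the 10 genes (9 windows, all but Adgre1 and Siglec1), on both strands. The PU.1 core GAGGAA was in windows of Cd68 and Ly6c2, the C/EBP motif TTGCNNAA in Cd68 and Lyz1, and the AP-1 motif TGANTCA in Cd68, against 23.3%, 9.56% and 6.75% of all 32851 RefSeq windows of that length. The E-boxes CACGTG and CATGTG (6.02% and 12.3% of all windows) were in none of the 9.

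Of the 8 macrophage identity genes tested, 2 were lower in the libraries labelled cKO, Siglec1 and Lyz2, and none was higher at an adjusted p under 0.05 (edgeR quasi-likelihood test, adjusted over 7953 genes). Over all genes tested, 0.754% were called lower and 0.641% higher. At an unadjusted p under 0.05, 4 members were lower (Adgre1 and Ly6c2 besides these) and 0 higher, against 6.5% lower and 5.63% higher of all genes tested, and neither DESeq2 nor limma-voom called a member higher. The median log2 fold change of the 8 was -0.45, against -0.01 over all genes tested. In 6 of the 8 both cKO libraries lay below both WT libraries, an arrangement found in 22.6% of all genes tested, and in 1, Gpnmb, both lay above (22.7%). Levels below are in CPM (counts scaled to a common TMM-adjusted library total), and levels are compared only within a gene, since no coding lengths were used.

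**Figure D1:**
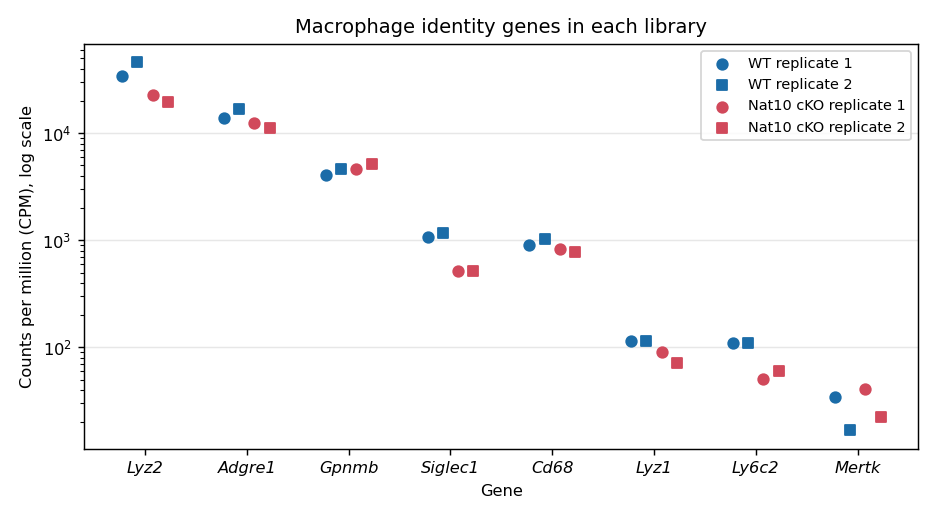
Level of each of the 8 tested genes in every library, in CPM on a log axis, with WT libraries in blue and Nat10 cKO libraries in red (circles replicate 1, squares replicate 2). The cKO points of Siglec1, Lyz2 and Ly6c2 lie clearly below the WT points, those of Gpnmb slightly above, and those of Mertk overlap them.

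Siglec1 (ENSMUSG00000027322, chromosome 2, 130911140 to 130928685, minus strand) encodes sialoadhesin, a lectin-like receptor of macrophages that binds sialic acid and is known to be induced by interferon. It had 750 and 771 counts in cKO and 975 and 3416 in WT. These were 514 and 520 CPM against 1075 and 1172 CPM. The libraries within each genotype were close together, and the genotypes did not overlap. The cKO mean was 517 ± 3.76 CPM and the WT mean 1123 ± 68.1 CPM (SD, n = 2 each). Siglec1 was 2.17-fold lower in cKO, a log2 fold change of -1.12 (SE 0.14, 95% interval -1.44 to -0.80, adjusted p = 0.00704, edgeR). It passed the threshold under all 12 alternative settings, including without WT replicate 2 (log2 -1.04, adjusted p = 8.89e-10).

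Lyz2 (ENSMUSG00000069516) encodes lysozyme M, the bacterial cell-wall hydrolase of macrophages and neutrophils. It had 33393 and 29167 counts in cKO and 30810 and 133344 in WT. Lyz2 alone took 2.28% and 1.97% of the counts of the cKO libraries and 3.40% and 4.42% of the WT libraries (95% Wilson intervals 2.25% to 2.30%, 1.95% to 1.99%, 3.36% to 3.44% and 4.40% to 4.45%, counting error only). Every WT library was above every cKO library, and WT replicate 2 was the highest. The levels were 22903 and 19660 CPM in cKO against 33979 and 45731 CPM in WT, with means of 21281 ± 2293 and 39855 ± 8310 CPM (SD, n = 2 each). Lyz2 was 1.87-fold lower in cKO (log2 -0.91, SE 0.14, adjusted p = 0.0165, edgeR). Without WT replicate 2 the difference was smaller but still past the threshold (log2 -0.66, adjusted p = 1.25e-11), and with limma-voom it missed it (log2 -0.97, adjusted p = 0.198).

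Lyz1 (ENSMUSG00000069515) encodes lysozyme P, best known from Paneth cells of the intestine. It had 133 and 105 counts in cKO and 103 and 338 in WT, or 91.2 and 70.8 CPM against 114 and 116 CPM. Its cKO libraries were also below its WT libraries, but the difference did not pass the test (log2 -0.50, SE 0.30, 95% interval -1.18 to 0.17, adjusted p = 0.549, edgeR), nor without WT replicate 2 (log2 -0.47, adjusted p = 0.521). Lyz1 counts were 0.398% and 0.360% of Lyz2 counts in cKO and 0.334% and 0.254% in WT. The coding parts of the 2 genes were not compared, and how shared reads were counted is not given. The part of misassigned Lyz2 reads in the Lyz1 counts was therefore not tested. Summing the 2 genes before the fit left Lyz2 at log2 -0.90 (adjusted p = 0.0166, edgeR).

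Adgre1 (ENSMUSG00000004730, chromosome 17, 57665691 to 57790527, plus strand) encodes F4/80, the adhesion G-protein-coupled receptor that marks mouse macrophages. It had 17972 and 16389 counts in cKO and 12553 and 49266 in WT, which made up 1.23% and 1.11% of the counts against 1.38% and 1.63%. The levels were 12326 and 11047 CPM against 13844 and 16896 CPM. The genotypes did not overlap, but cKO replicate 1 and WT replicate 1 were close. The log2 fold change was -0.40 (SE 0.11, 95% interval -0.65 to -0.14), which missed the threshold (adjusted p = 0.183, edgeR). It passed with no low-count filter (log2 -0.38, adjusted p = 0.0111, edgeR) but under no other setting that kept all libraries. Without WT replicate 1 the log2 fold change was -0.50. Without WT replicate 2 the log2 fold change was -0.23 (adjusted p = 0.165).

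Cd68 (ENSMUSG00000018774, chromosome 11, 69555039 to 69556979, minus strand) encodes macrosialin, a heavily glycosylated protein of late endosomes and lysosomes that osteoclasts also carry. It had 1213 and 1154 counts in cKO and 814 and 2985 in WT, or 832 and 778 CPM against 898 and 1024 CPM. The cKO libraries were slightly below the WT libraries. The difference did not pass (log2 -0.26, SE 0.14, 95% interval -0.58 to 0.07, adjusted p = 0.513, edgeR), and without WT replicate 2 it was smaller (log2 -0.14, adjusted p = 0.734).

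Gpnmb (ENSMUSG00000029816, chromosome 6, 49013480 to 49047863, plus strand) encodes a transmembrane glycoprotein of lysosomes and the cell surface, also called osteoactivin, which lipid-laden macrophages and osteoclasts make. It had 6795 and 7588 counts in cKO and 3720 and 13568 in WT. The levels were 4660 and 5115 CPM against 4103 and 4653 CPM. Both cKO libraries were above both WT libraries, but cKO replicate 1 and WT replicate 2 were almost level. The log2 fold change was 0.16 (SE 0.11, 95% interval -0.09 to 0.41, adjusted p = 0.617, edgeR), and it passed the threshold under none of the 12 alternative settings. Without WT replicate 2 it was 0.27 (adjusted p = 0.153).

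Mertk (ENSMUSG00000014361, chromosome 2, 128540876 to 128644814, plus strand) encodes a receptor tyrosine kinase by which macrophages take up dying cells. It had 59 and 33 counts in cKO and 31 and 49 in WT, or 40.5 and 22.2 CPM against 34.2 and 16.8 CPM. The libraries of the 2 genotypes interleaved. The log2 fold change was 0.33 with a wide 95% interval from -1.09 to 1.74 (SE 0.62, adjusted p = 0.89, edgeR). It changed sign without cKO replicate 1 (-0.16) and without WT replicate 2 (-0.11, adjusted p = 0.956).

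Of the monocyte genes, Ly6c2 was counted in every library, while Cx3cr1 and Ccr2 had few or no counts. Ly6c2 (ENSMUSG00000022584, chromosome 15, 74980007 to 74983819, minus strand), one of the genes of the Ly6C antigen of inflammatory monocytes, had 74 and 89 counts in cKO and 99 and 322 in WT. These were 50.8 and 60.0 CPM against 109 and 110 CPM. The cKO libraries lay near 55.4 ± 6.53 CPM and the WT libraries near 109.8 ± 0.88 CPM (SD, n = 2 each), without overlap. The fold, 1.98-fold lower in cKO, missed the threshold (log2 -0.99, SE 0.31, adjusted p = 0.22, edgeR), as it did without WT replicate 2 (log2 -0.96, adjusted p = 0.101). It passed under no alternative setting that kept all libraries, and the log2 fold change without WT replicate 1 was -0.96. The related gene Ly6c1, 59327 bases away, had 0 counts in all 4 libraries, so summing the pair added nothing to Ly6c2. The sequences of the 2 genes were not compared, and how reads that match both were counted is not given.

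Cx3cr1 (ENSMUSG00000052336, chromosome 9, 119730682 to 119898945, minus strand), the receptor gene for fractalkine, had 4 and 0 counts in cKO and 14 and 0 in WT. WT replicate 2, the deepest library, had none, which allows up to 1.03 CPM, against 15.4 CPM in WT replicate 1. The ratio of summed counts was 2.69 in favour of WT, with a 95% counting interval from 0.846 to 11.2. The deposited Cx3cr1 locus spans 168264 bases and overlaps 5 other genes (Csrnp1, Gorasp1 and Xirp1 on the same strand, Ttc21a and Wdr48 on the other), so these few counts are uncertain. Ccr2 (ENSMUSG00000049103, chromosome 9, 123901987 to 123913594, plus strand), the receptor gene by which monocytes follow Ccl2 out of the marrow, had 1 count in WT replicate 1 and 0 in the other libraries. A count of 0 in the cKO pair allows up to 1.02 CPM. The cells were labelled monocytes. These 2 defining monocyte receptor genes were at or near 0 in every library but WT replicate 1 for Cx3cr1. The monocyte gene Ly6c2 and the macrophage genes Adgre1, Lyz2 and Cd68 were counted in every library.

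**Figure D2:**
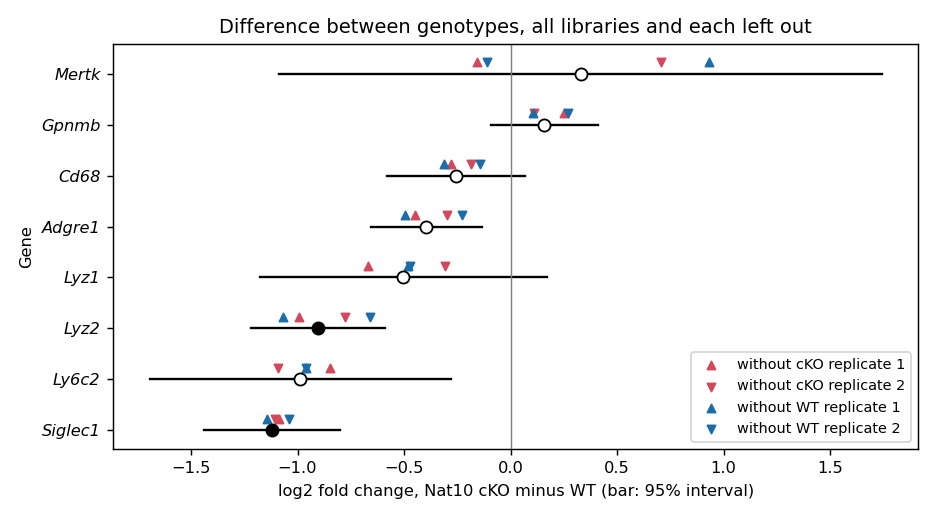
Difference between genotypes for the 8 tested genes on the log2 scale (x axis, Nat10 cKO minus WT). Circles are the fit of all 4 libraries (filled where the adjusted p was under 0.05) with 95% intervals as bars, and triangles are the fits with 1 library left out. The triangles of Siglec1 lie between -1.14 and -1.04, while those of Mertk fall on both sides of 0.

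The members also shifted relative to one another within libraries, a comparison that no scaling of the libraries affects. Siglec1 had 0.618 and 0.668 counts per Cd68 count in cKO and 1.20 and 1.14 in WT. Lyz2 had 27.5 and 25.3 counts per Cd68 count in cKO and 37.9 and 44.7 in WT. For both genes the cKO ratios were lower than either WT ratio. Adgre1 per Cd68 differed less, at 14.8 and 14.2 in cKO and 15.4 and 16.5 in WT. Gpnmb went the other way, with 5.60 and 6.58 counts per Cd68 count in cKO and 4.57 and 4.54 in WT. These ratios were not tested, with 2 libraries a group. Together the 10 genes made up 4.12% and 3.73% of all counts in cKO and 5.42% and 6.74% in WT, most of them from Lyz2 and Adgre1.

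**Figure D3:**
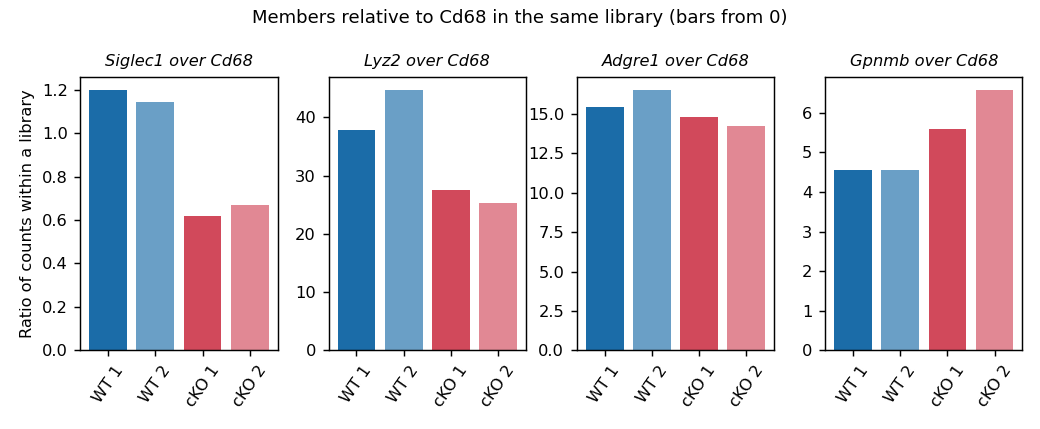
Counts of Siglec1, Lyz2, Adgre1 and Gpnmb divided by the Cd68 counts of the same library (y axes, bars from 0, 1 bar a library, WT in blue and cKO in red). The cKO bars of Siglec1 reach 0.618 and 0.668 and the WT bars 1.20 and 1.14, while Gpnmb has the taller bars in cKO.

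The replicates differed less for these genes than for genes in general. The median absolute log2 difference between the WT libraries was 0.186 over the 8 tested members and 0.604 over all genes tested, and between the cKO libraries 0.189 and 0.372. The part of abundance in this was not tested. Mertk, with the fewest counts of the 8, had the largest replicate differences, with WT replicate 2 lower than WT replicate 1 by a log2 difference of -1.02. By distance of centred log2 CPM over the 4 libraries, among 6055 genes, the patterns most like that of Adgre1 were those of Cnbp, Uggt1 and Calr (distances 0.0435, 0.0436 and 0.0561), and those most like Lyz2 were Dcaf17, Sgk1 and Lpcat3 (0.0549, 0.0581 and 0.0763).

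Genes that work with the members were counted from 3 wider lists. Of 12 ligands, sister receptors and M-CSF genes, 6 were tested, with a median log2 fold change of -0.51. By edgeR 1 was lower and none was higher, beside 0.754% and 0.641% of all genes tested. The one that was lower was Csf1r, the M-CSF receptor gene, at 2102 and 2007 CPM in cKO against 3359 and 3788 CPM in WT (log2 -0.80, SE 0.11, adjusted p = 0.0121, edgeR; log2 -0.69, adjusted p = 3.57e-07 without WT replicate 2). Csf1, the gene of M-CSF itself, stood at 48.0 and 64.0 CPM (cKO) against 118 and 121 CPM (WT), without passing (log2 -1.09, SE 0.31, adjusted p = 0.183). It passed with limma-voom (adjusted p = 0.0273). The log2 fold change was -1.07 without WT replicate 1 and -1.06 without WT replicate 2. Ccl2, the main ligand gene of Ccr2, named after its values were seen, stood at 162 and 206 CPM (cKO) against 165 and 54.2 CPM (WT), so that the genotypes overlapped and WT replicate 2 was the lowest (log2 0.79, SE 0.46, adjusted p = 0.548, edgeR). Tyro3, a sister receptor gene of Mertk, the chemokine gene Ccl8 and Il34, the gene of the other Csf1r ligand, had no count in any library. At an unadjusted p under 0.05, 2 of the 6 were lower and 0 higher, beside 6.5% and 5.63% of all genes tested. DESeq2 called 1 lower and 0 higher, and limma-voom 2 and 1. Of all 7953 genes tested, DESeq2 called 110 lower and 103 higher, and limma-voom 206 and 485.

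Of 17 transcription factors of macrophages, 15 were tested and none passed by edgeR, with 3 lower and 0 higher at an unadjusted p under 0.05 (6.5% and 5.63% of all genes tested) and a median log2 fold change of -0.41. DESeq2 called 0, and limma-voom 1 lower, Spi1, beside 206 lower of all 7953 genes tested. Spi1 encodes PU.1, the factor on which the myeloid lineage depends. The cKO libraries had 147 and 118 CPM, below the 204 and 227 CPM of the WT libraries (log2 -0.70, SE 0.24, adjusted p = 0.272, edgeR). The log2 fold change was -0.74 without WT replicate 1 and -0.61 without WT replicate 2.

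Of 28 other monocyte, macrophage and phagocyte genes, 21 were tested, with a median log2 fold change of 0.04. By edgeR 1 was lower and none higher, beside 0.754% and 0.641% of all genes tested. At an unadjusted p under 0.05, 5 were lower and 1 higher, beside 6.5% and 5.63% of all genes tested. DESeq2 called 2 lower and 1 higher, beside 110 and 103 of all 7953 genes tested. With limma-voom 3 were lower and 1 higher, beside 206 and 485. Trem2, a receptor gene of macrophages that senses lipids and signals through DAP12, was the one that was lower, at 65.8 and 68.8 CPM in cKO against 171 and 221 CPM in WT (log2 -1.55, SE 0.28, adjusted p = 0.0337). With either cKO library left out it missed the threshold (adjusted p = 0.255 without replicate 1 and 0.165 without replicate 2), and without WT replicate 2 it passed (log2 -1.33, adjusted p = 0.00076). Mpeg1, the gene of the pore-forming protein perforin-2 of macrophages, went the other way, at 4362 and 4878 CPM in cKO against 3408 and 3274 CPM in WT. Its log2 fold change of 0.47 (SE 0.11) did not pass (adjusted p = 0.0878, edgeR). It passed with DESeq2 (adjusted p = 0.00995) and limma-voom (adjusted p = 7.59e-05). By edgeR it also passed with no low-count filter (adjusted p = 0.00526) and with the filter of 5 CPM in all libraries (adjusted p = 0.0439). It did not pass with the other scalings, the replicate number as a block or summed gene copies. The log2 fold change was 0.46 without WT replicate 2 and 0.53 without WT replicate 1. It was 0.57 without cKO replicate 1 and 0.41 without cKO replicate 2. Cd163, Vsig4, Timd4 and Clec4f, markers of tissue-resident macrophages, had no count in any library.

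**Figure D4:**
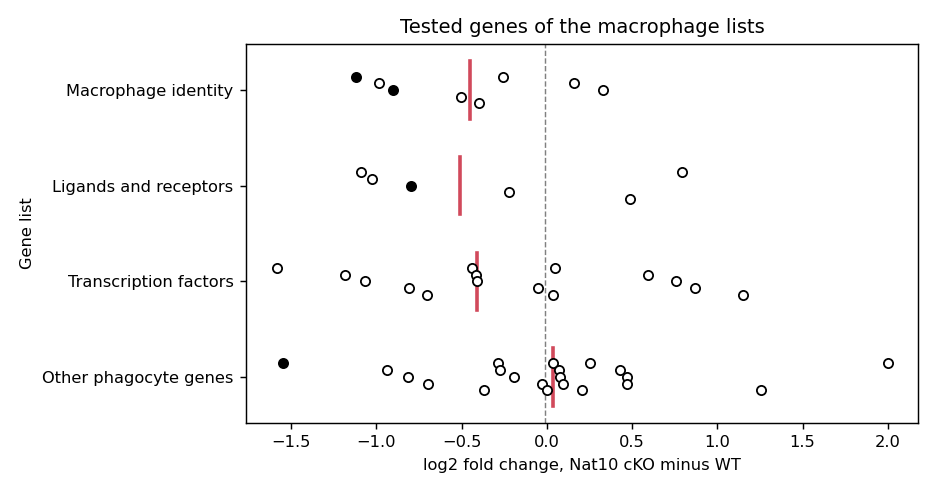
Difference between genotypes for every tested gene of the macrophage identity genes and the 3 wider lists (x axis, log2 fold change, Nat10 cKO minus WT; filled circles passed an adjusted p under 0.05). Red bars mark each list's median and the dashed line the median of all genes tested, -0.01. The other phagocyte genes lie on both sides of 0, with a median of 0.04.

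Markers of other cells moved between the same libraries. Of the 11 stromal markers 8 were tested, 5 were lower in cKO and none higher, against 0.754% and 0.641% of all genes tested. In 6 of the 8 both cKO libraries lay below both WT libraries (22.6% of all genes tested). In 2, Pdgfrb and Runx2, both lay above (22.7%). The summed level, mostly from Col1a1 and Col1a2, was 545 to 578 CPM in cKO against 4258 to 5586 CPM in WT. Of 10 osteoclast genes, all tested, 1 was lower and none higher by edgeR, beside 0.754% and 0.641% of all genes tested. At an unadjusted p under 0.05, 6 were lower and 0 higher, beside 6.5% and 5.63% of all genes tested. Both cKO libraries lay below both WT libraries in 8 of the 10 (22.6% of all genes tested) and above them in 1, Calcr (22.7%). The 10 genes summed to 8013 to 8638 CPM in cKO and 12760 to 13560 CPM in WT. Of 9 neutrophil markers, 5 were tested and none passed by edgeR. At an unadjusted p under 0.05, 3 were lower and 1, Csf3r, was higher, beside 6.5% and 5.63% of all genes tested. The sum of the 9, mostly from S100a8 and S100a9, was 798 to 881 CPM in cKO and 1342 to 1525 CPM in WT. The defining marker Ly6g was at 0 in every library. Neutrophils also make Lyz2. All 7 markers of T, NK and B cells were at 0, and the dendritic cell markers summed to no more than 7.4 CPM in any library, with Xcr1 and Cd209a at 0. The erythroid and megakaryocyte markers summed to at most 72.8 CPM and the endothelial markers to at most 12.3 CPM. The part of stromal, osteoclast and neutrophil RNA in the lower Siglec1 and Lyz2 counts was not tested. In bulk libraries fewer macrophages and less RNA per macrophage cannot be told apart, and without matched RNA-seq a change in mRNA and a change in translation cannot be either.

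**Figure D5:**
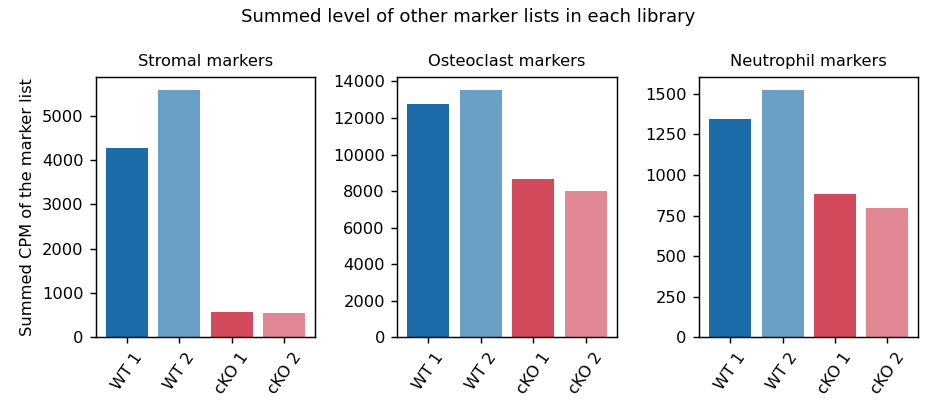
Summed level of the stromal, osteoclast and neutrophil marker lists in each library (y axes, CPM, bars from 0, WT in blue and cKO in red). For all 3 lists the bars of the cKO pair are shorter than those of the WT pair.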

How the data were processed

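The authors deposited raw counts per gene for 4 libraries in 1 table, per the file headers, with GRCm39 coordinates. Fastp, Bowtie, STAR and HTSeq are named, without versions or roles, per the submitters' processing notes. Per the labels' protocols, cells were washed with cycloheximide, ribosomal RNA was depleted and a small-RNA library kit was used. The sources used here do not give the strand setting, the footprint lengths kept or the treatment of duplicates and multi-mapping reads. Count columns were matched to samples by their descriptions. Totals per library were 906937 to 3014620, and intervals and floors (3 counts) cover counting error only.

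Counts were fitted with edgeR 4.0.16 in R 4.3.3 (filterByExpr with minimum count 10 and minimum total 15, TMM factors, robust quasi-likelihood fit, genotype as the only term), with Benjamini-Hochberg adjustment over 7953 tested genes (threshold 0.05). Same-numbered replicates did not deviate together (correlation -0.0157 across genes). DESeq2 1.42.0, limma-voom (limma 3.58.1), other scalings and filters, the replicate number as a block, summed gene copies and each library left out were the 12 alternatives. The pipeline was tested on simulated counts. The members and lists were chosen with earlier results of these data known. The text names all 10 members, the related gene Ly6c1, and the 3 genes most like Adgre1 and Lyz2. Of each wider list it names the genes past the threshold or the 2 with the smallest p. One gene that this rule names is not reported here. Levels per coding length, planned earlier, were not computed, since no coding lengths were used here.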

Additional observations from a re-analysis of the deposited data

How the results depend on the processing

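Over 13 named genes and the 12 alternative settings, 137 of 155 fold changes kept their direction and their side of the threshold, 13 came to pass it, 3 no longer passed it and 2, both of Mertk, changed sign (-0.1563 without cKO replicate 1 and -0.1114 without WT replicate 2, in a range up to 0.9301 with 1 library left out). The members called lower were 2 with all libraries, 1 with limma-voom and 3 with no low-count filter, and 2 to 4 with 1 library left out, 4 being without WT replicate 1; none was called higher in any setting. Among ligands and receptors, limma-voom called 1 higher and 2 lower, and with 1 library left out 0 to 1 were higher and 1 to 2 lower. Among transcription factors limma-voom called 1 lower, and with 1 library left out 0 to 2 were called in each direction. Among other phagocyte genes no filter, the filter of 5 CPM in all libraries and DESeq2 called 1 higher and 2 lower, limma-voom 1 and 3, and fits with 1 library left out 0 to 3 and 0 to 4. Of all genes tested, 51 rose and 60 fell with the settings as reported, against 184 and 179 with no filter, 94 and 97 with the 5 CPM filter, 103 and 110 with DESeq2, 485 and 206 with limma-voom, 67 and 76 with the replicate number as a block, and 35 to 1354 and 38 to 1066 with 1 library left out. The block kept all member calls by edgeR (Siglec1 log2 -1.118, adjusted p = 0.00256, and Lyz2 log2 -0.8936, adjusted p = 0.0116). Whether the replicate number it rests on pairs the samples is not known. The causes of these differences were not tested. With 1 library left out, the lone library of a genotype is assumed to vary like the other pair. Calls from these fits are therefore not like for like with those of all libraries. Mertk, Ly6c2 and Lyz1 had the fewest counts of the tested members and the widest intervals. Cx3cr1 and Ccr2 were below the filter, with 0 counts in WT replicate 2.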
